A study of Mus musculus with 2 samples.

Results

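The S100 family of calcium-binding proteins was followed through 10 of its genes in hair follicles of wild-type mice and of dnFGFR2-IIIb transgenic mice. FGFR2-IIIb is the epithelial splice form of a receptor for fibroblast growth factors, and the transgene carries a form of it. The genes were S100a1, S100a3, S100a4, S100a6, S100a8, S100a9, S100a10, S100a11, S100a14 and S100a16, taken by the gene symbol of the array annotation. Of these 10, 9 were found, among 18193 named genes, and they were read by 13 of the 34945 probe sets that carry a single gene symbol. S100a11 had no such probe set, and the 1 probe set that lists it also lists 2 other genes, so it is described apart. The genes were chosen with their signals on these same arrays in view, so the differences below are descriptions and support nothing beyond themselves.

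The series asked which genes are targets of FGFR2-IIIb signalling in the follicle. It held 2 Affymetrix Mouse430_2 arrays, 1 with wild-type and 1 with transgenic RNA, both at postnatal day 10. Each array received a pool of roughly 300 follicles, to which 3 mice from separate litters gave roughly 100 each. The sources used here do not give the strain, the sex of the mice or the promoter of the transgene. With 1 array per group there was no replicate check, pooling hid the spread between mice, and no difference was tested. As the follicles were measured in bulk, fewer cells of a type and less RNA per cell cannot be told apart.

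S100 proteins are small calcium-binding proteins with a pair of EF-hand motifs that mostly act as dimers. On binding calcium most of them expose a surface that docks onto partner proteins, and a few are released from cells and act as signals in inflammation. Most S100 genes sit in a cluster beside the epidermal differentiation complex, which holds genes of the cornified envelope, and several are prominent in epidermis and hair.

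Signals are linear intensities in arbitrary units that the authors had scaled to the same trimmed mean on both arrays. A floor of 10.5, the 40th percentile of both arrays, separated signals from background. Hair keratins, the defining genes of the labelled tissue, were bright, with Krt31 at 11688 on the wild-type and 11946 on the transgenic array. The ratio of 3' to 5' signal was 1.89 and 2.06 for beta-actin. A probe set for the 5' part of 18S ribosomal RNA read 3655 and 10275. The pools also differed in sex-linked genes. Eif2s3y, on the Y chromosome, read 191 on the wild-type array and was below the floor on the transgenic one, while Xist read 352 and 1146. The part of these differences in the S100 values was not tested.

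Of the 9 S100 genes, S100a8 and S100a9 read 4.07-fold and 4.81-fold lower in transgenic follicles, and the other 7 differed by under 2-fold. No gene of the set was 2-fold higher. Of all 11565 genes with both signals above the floor, 1.58% read 2-fold lower or more and 1.60% read 2-fold higher or more, and among the 6759 of them that reached a signal over 100 these shares were 0.725% and 0.355%. Since the set was chosen with these ratios known, nothing is read from its count of 2 against those shares. The ratio of transgenic to wild-type signal was below 1 for 7 of the 9 genes, against 50.1% of all genes above the floor, and above 1 for 2. These counts depended on the scaling, with 8 below and 1 above when array medians were set equal, and 5 below and 4 above when spiked controls were. The median log2 ratio was -0.41, beside 0.00 over all genes above the floor. All 13 probe sets lay above the floor on both arrays, so every found gene entered these counts.

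**Figure D1:**
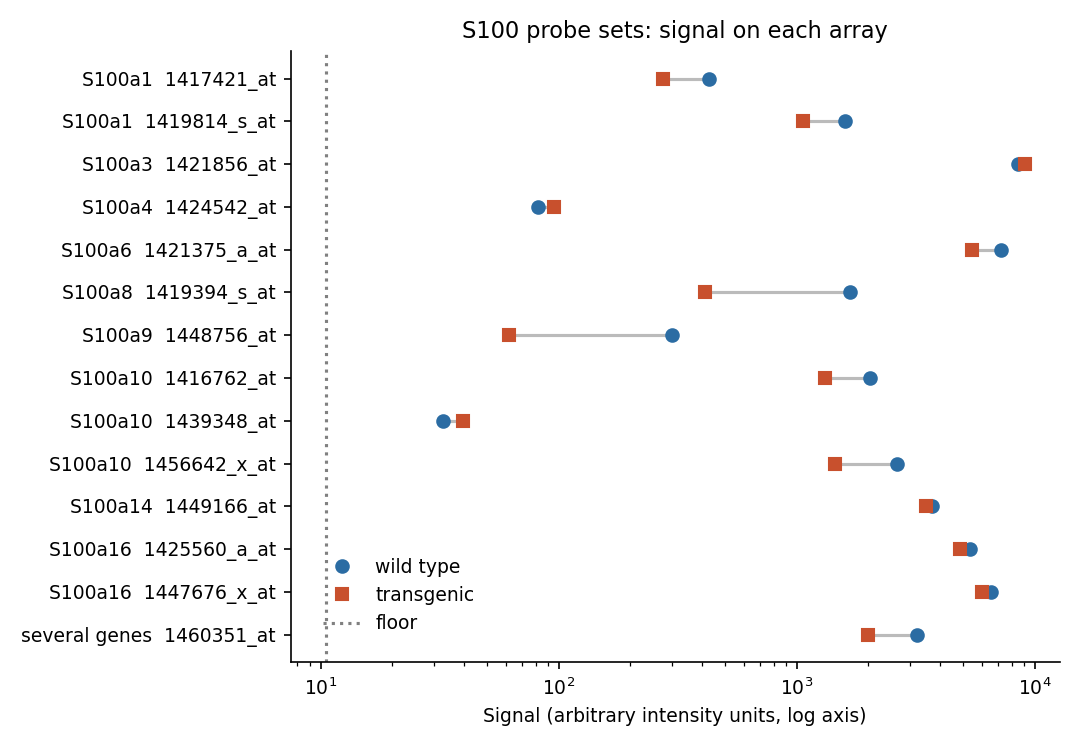
Signal of each S100 probe set on the wild-type array (circles) and the transgenic array (squares), in arbitrary intensity units on a log axis, with 1 array per group and the floor of 10.5 as a dotted line. The long lines belong to S100a8 and S100a9, and the last line is the probe set that lists several genes, S100a11 among them.

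S100a8 and S100a9 encode the subunits of calprotectin, a heterodimer that binds zinc and manganese as well as calcium. It is abundant in neutrophils, is induced in keratinocytes under stress, and signals through Toll-like receptor 4 and the receptor for advanced glycation end products. S100a8, read by probe set 1419394_s_at, gave 1671 in wild-type and 411 in transgenic follicles. The transgenic signal was thus 24.6% of the wild-type signal, a 4.07-fold difference and a log2 ratio of -2.02. S100a9, read by probe set 1448756_at, gave 298 and 62.0, or 20.8% of the wild-type signal, with a log2 ratio of -2.26. Both genes were above the floor on both arrays, and both stood lower on the transgenic one by a similar factor. Each was read by a single probe set, so no second probe set of the gene checks its ratio, and the name of the S100a8 probe set marks it as able to match several transcripts. The names of the probe sets used for S100a1, S100a6, S100a10 and S100a16 carry such marks as well.

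Ranked from the lowest ratio, S100a9 came at place 14 and S100a8 at place 22 of the 11565 genes above the floor. Among the 6759 brighter genes they took places 13 and 20. Part of the technical spread can be gauged from genes with several probe sets in the same range of brightness. Its SD on the log2 scale was 0.17 for signals over 238, from 1037 genes, 0.29 for signals between 63.9 and 238, from 1115 genes, and 0.52 below that. The log2 ratio of S100a8, in the first range, and that of S100a9, in the second, were several times these SDs, which leave out the spread between mice.

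**Figure D2:**
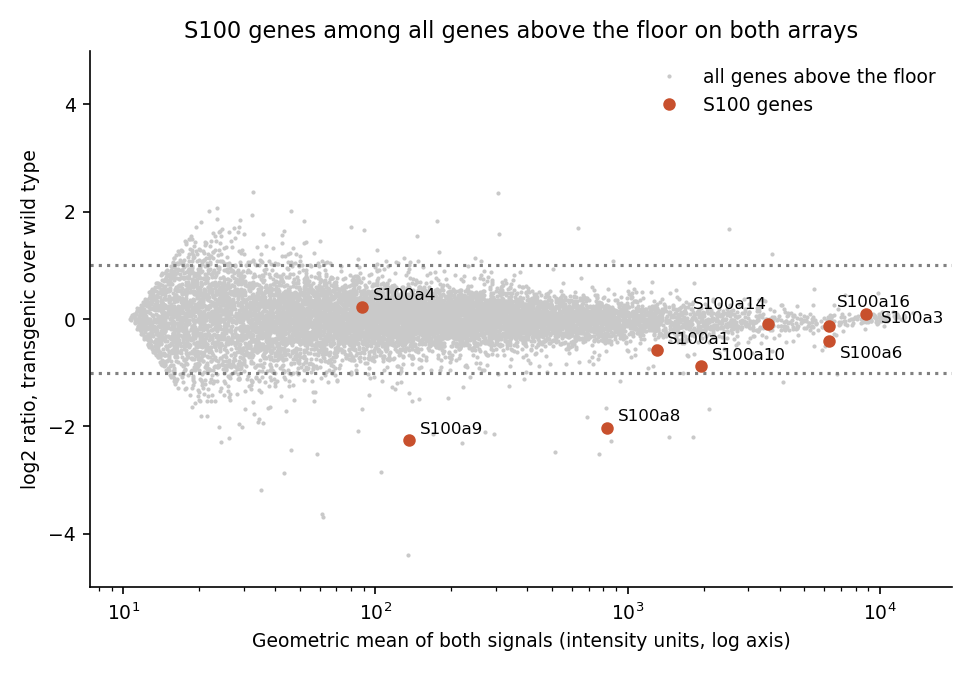
The log2 ratio of transgenic to wild-type signal against the geometric mean of both signals for all 11565 genes above the floor (grey) and the 9 S100 genes (coloured), with dotted lines at 2-fold and 1 gene of all those beyond the vertical axis. S100a8 and S100a9 lie at -2.02 and -2.26, apart from the bulk of genes of their brightness, and S100a3, S100a14 and S100a16 lie within it.

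The windows around the annotated transcription starts of S100a8 and S100a9 are printed because these are the genes of the set with the largest ratios and lie next to each other. RefSeq places them, on GRCm38.p6, at chr3:90668821-90669120 on the plus strand for S100a8 and at chr3:90695672-90695971 on the minus strand for S100a9. Each window runs from 250 bases before the start to 50 bases after it, 5′ to 3′ on the strand of the gene, and capitals mark TATAAA, the core of the TATA box that places the start of many regulated genes.
S100a8: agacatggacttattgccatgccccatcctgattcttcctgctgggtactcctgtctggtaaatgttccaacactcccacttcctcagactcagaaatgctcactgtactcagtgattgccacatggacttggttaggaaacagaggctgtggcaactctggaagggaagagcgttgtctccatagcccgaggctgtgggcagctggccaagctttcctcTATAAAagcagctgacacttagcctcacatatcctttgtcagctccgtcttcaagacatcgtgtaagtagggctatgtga
S100a9: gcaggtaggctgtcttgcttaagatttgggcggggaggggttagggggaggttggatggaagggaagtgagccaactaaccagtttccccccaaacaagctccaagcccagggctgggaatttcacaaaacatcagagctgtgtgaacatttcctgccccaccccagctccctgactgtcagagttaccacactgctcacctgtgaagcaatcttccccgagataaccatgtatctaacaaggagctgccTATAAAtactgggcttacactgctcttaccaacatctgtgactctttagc

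In the S100a8 window TATAAA begins 30 bases before the start, and in the S100a9 window it begins at base 1 of the annotated transcript. The motif, searched on both strands, was found in 13.6% of all 32851 RefSeq windows of this length. RefSeq windows were at hand for 8 genes of the set, 12 windows in all. TATAAA was also found in the window of S100a4, at 31 bases before the start, and in 1 of the 4 windows of S100a3, at base -52. All these matches lie on the strand of the gene, where 8.32% of all windows hold the motif. Whether the motif has a part in the ratios was not tested. CANNTG, the E-box, occurred 3 times in the S100a8 window and 2 times in that of S100a9, without overlap with TATAAA, and is in 72.3% of all windows. TGANTCA, an AP-1 motif found in 7.81% of all windows, was in neither of these windows but occurred 2 times in that of S100a11 and 1 time in 1 window of S100a16. TTCNNNGAA, a STAT motif found in 8.30% of all windows, was in 0 of the 12. A match describes the letters and does not show a binding site.

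Neutrophils and other myeloid cells are a known source of calprotectin, and their markers were low on both arrays. Of 18 myeloid markers on the array, 5 lay above the floor on both arrays, 7 on neither and 6 on the transgenic array alone. None of the 5 was 2-fold apart at its brightest probe set, and their median log2 ratio was 0.03. Only 1.58% and 1.60% of all genes above the floor were 2-fold lower and higher, so 0 of 5 says little. The other probe sets of Csf1r, a macrophage receptor, gave log2 ratios from -1.60 to 0.45, beside 0.03 at the one used. The summed signal of the 18 was 239 on the wild-type and 324 on the transgenic array, with single genes at up to 73.3 and 74.8. Mpo, Ltf, Cxcr2, Mmp8, Itgam, Itgb2 and Ptprc lay under the floor on both arrays. Elane (6.60 and 12.3), Camp (5.10 and 14.9), Ngp (8.10 and 12.7), Mmp9 (1.40 and 13.6), Tyrobp (3.50 and 15.6) and Csf3r (2.80 and 24.1) exceeded it on the transgenic array alone, most of them by little. These groups of genes were named after their values were seen. The largest ratios above the floor were those of Adgre1, a macrophage marker, at 11.8 and 19.3 (log2 ratio 0.71), and Lyz2, a lysozyme, at 21.6 and 32.8 (0.60). Most of these signals were near or under the floor, and the part of such cells in the S100a8 and S100a9 values was not tested.

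Receptors and adaptors through which calprotectin is known to act read alike on both arrays, or were dim. They were counted together with the cytokine receptors Il17ra (107 and 129) and Il22ra1 (39.0 and 44.2), which are not receptors of calprotectin. Of these 12 genes, 9 lay above the floor on both arrays, 0 were 2-fold apart and the median log2 ratio was -0.07. As 1.58% and 1.60% of all genes above the floor were 2-fold lower and higher, 0 of 9 does not set this list apart. Ager, the receptor for advanced glycation end products, lay under the floor on both arrays, and Tlr4 read 14.3 and 13.6, close to it. The largest ratios above the floor were those of Cd36, a scavenger receptor, at 73.6 and 49.9 (log2 ratio -0.56, with -0.09 and 0.12 as the limits of its other probe sets), and Mcam, an adhesion molecule, at 51.9 and 63.2 (0.28). Cd14, a co-receptor of Tlr4, read 22.6 on the wild-type array and was below the floor on the transgenic one.

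Among transcription factors and cofactors known to act on S100a8 and S100a9, most of the brighter ones read alike. All 14 measured genes lay above the floor. Of these, 2 were 2-fold lower and 0 were higher, beside 1.58% and 1.60% of all genes above the floor. The median log2 ratio of the 14 was -0.07. The lower ones were Bcl3, a nuclear partner of NF-kappaB, at 33.9 and 12.9 (log2 ratio -1.39), and Fosl1, an AP-1 subunit, at 39.9 and 16.9 (-1.24). Both were dim and read by 1 probe set above the floor. Fosl2, another AP-1 subunit, had a log2 ratio of 0.18 at the probe set used and 1.15, over 2-fold higher, at its other one. Cebpb, an activator of both calprotectin genes in myeloid cells and keratinocytes, read 1948 and 1696 (-0.20), and Stat3 read 258 and 254 (-0.02); these were singled out after their values were seen.

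The genes of 1 list of those that keratinocytes switch on under stress, often together with calprotectin, did not share a ratio of that size. The list leaves out Sprr1b, Sprr2h and Serpinb2, which are given below with log2 ratios of -2.52, -2.28 and -2.30. Of its 20 genes on the array, 12 lay above the floor on both arrays, 4 only on the wild-type array, 1 only on the transgenic array and 3 on neither. Of the 12, 9 had a ratio below 1 and 3 above, with a median log2 ratio of -0.22. None of the 12 was 2-fold lower and 1 was 2-fold higher, beside 1.58% and 1.60% of all genes above the floor. The higher one was Il1a, which encodes interleukin 1 alpha, at 13.6 and 42.8. After it, the largest ratios were those of Cxcl1, a chemokine, at 22.2 and 33.9 (0.61), and Hbegf, a growth factor, at 130 and 85.3 (-0.61, but 0.30 at its other probe set). Krt16, a keratin of stressed epidermis and of the outer root sheath, read 260 and 177 (-0.55), and Krt6a read 2588 and 2553 (-0.02). Both keratins were picked after their values were seen.

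Genes near the calprotectin pair in ratio were sought over these 2 arrays among those with a signal over 100. Nearest to S100a8 were Rcsd1, 2310061N02Rik, Tm4sf4, Dsc2, a desmosomal cadherin, and Csta1, of the stefin family of protease inhibitors, with log2 ratios from -2.09 to -2.19. Nearest to S100a9 were Sprr2h, a cornified envelope precursor, and Serpinb2, a serine protease inhibitor, at -2.28 and -2.30, followed by Ivl, Csta1 and Dsc2. With 2 arrays, likeness in pattern means likeness of a single ratio.

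S100a3 is a cysteine-rich member known from the cuticle of the hair shaft, where peptidylarginine deiminases convert its arginines to citrulline. It read 8523 on the wild-type and 9076 on the transgenic array (probe set 1421856_at, log2 ratio 0.09). This ratio is within the SD of 0.17 between probe sets on the same arrays at such brightness. Padi3, a deiminase that acts on S100a3, read 4463 and 4703 (0.08), named here after its values were seen. Of 11 hair shaft and cuticle keratins, 10 were under 2-fold apart, with Krt35 the farthest of them (6000 and 7240, log2 ratio 0.27), and the median log2 ratio was 0.05. The remaining one, Krt84, read 619 and 29.4, a 21.1-fold difference (-4.40) and larger than those of S100a8 and S100a9. S100a3 lay within the range of the other 10 keratins, from -0.22 for Krt32 to 0.27 for Krt35. As these 10 are grouped for being under 2-fold apart, this likeness was not a test. Whether the ratio of S100a3 is compressed at so bright a signal was not tested.

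S100a14 and S100a16, of epithelia, also read alike on both arrays. S100a14 gave 3714 and 3482 (log2 ratio -0.09). S100a16 gave 6566 and 5994 at probe set 1447676_x_at and 5328 and 4846 at 1425560_a_at, with log2 ratios of -0.13 and -0.14. Both probe sets of S100a16 put the transgenic signal at about 91% of the wild-type one. The signs of these ratios, and that of S100a3, depended on the scaling, and S100a14 moved from -0.24 when array medians were set equal to 0.10 when the spiked hybridisation controls were.

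S100a6, or calcyclin, is known from proliferating cells and binds annexins and the calcyclin-binding protein Cacybp. It read 7243 and 5464 (probe set 1421375_a_at), so the transgenic signal was 75.4% of the wild-type one, with a log2 ratio of -0.41. This is a small difference, beyond the SD of 0.17 between probe sets on the same arrays at its brightness, and it ranged from -0.55 to -0.21 over 6 scalings.

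S100a10, or p11, differs from its relatives in that it needs no calcium, and it forms a tetramer with annexin A2 at the plasma membrane. At its brightest probe set, 1456642_x_at, it read 2649 and 1450 (log2 ratio -0.87), and at 1416762_at it read 2035 and 1318 (-0.63). The remaining probe set, 1439348_at, was dim and read 32.6 and 39.5 (0.28), the other way. The bright probe sets thus both read lower on the transgenic array, at 54.7% and 64.8% of wild type. S100a10 was the gene closest to 2-fold without reaching it, and with equal medians it passed, at -1.01, which brought the number of lower genes in the set to 3.

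S100a1, known as a modulator of calcium handling in muscle, read 1595 and 1066 at probe set 1419814_s_at (log2 ratio -0.58) and 428 and 274 at 1417421_at (-0.65). The probe sets gave similar ratios, with the transgenic signal at 66.9% and 63.9% of wild type. S100a4, known as metastasin and used as a marker of fibroblasts, read 81.7 and 96.0 at its only probe set (log2 ratio 0.23). This ratio is within the SD of 0.29 between probe sets on the same arrays at such brightness. S100a4 was, with S100a3, 1 of the 2 genes with a ratio above 1. Beside it, the 10 fibroblast and dermis markers had a summed signal of 2659 and 3488, with 9 above the floor on both arrays. Of the 9, 0 were 2-fold apart, beside 1.58% and 1.60% of all genes above the floor, and the median log2 ratio was 0.09. Dcn (985 and 1590, 0.69) and Col1a1 (90.7 and 116, 0.36, with 0.93 at its other probe set) had the largest ratios of the 9. The part of such cells in the S100a4 value was not tested.

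The probe set that lists S100a11, 1460351_at, also lists S100a11-ps and Gm12854, so its signal cannot be given to 1 gene. It read 3197 and 2002, a log2 ratio of -0.68. That value lay near those of S100a1 and the bright S100a10 probe sets. S100a11 itself, a partner of annexin A1, has no value here.

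**Figure D3:**
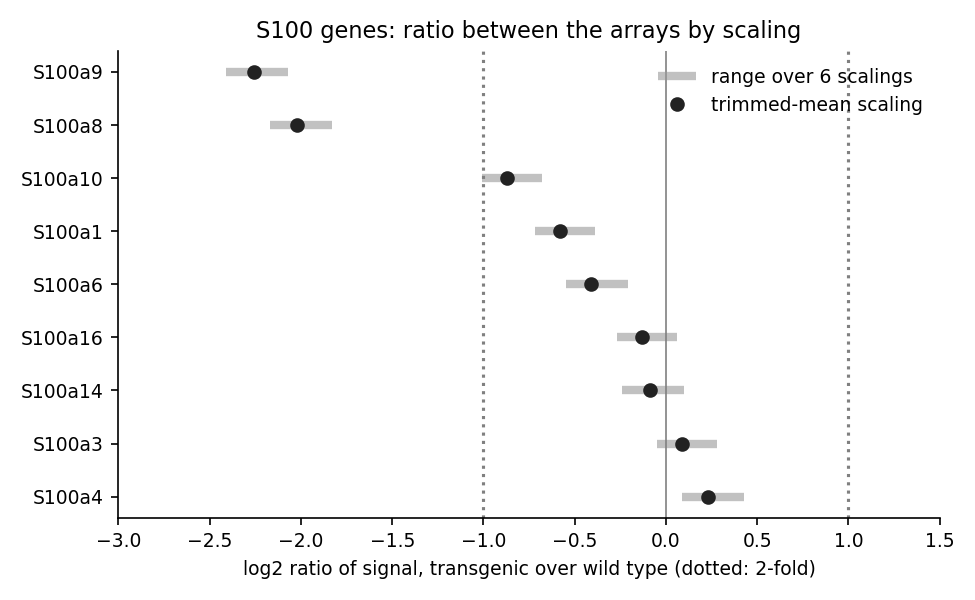
The log2 ratio of transgenic to wild-type signal for the 9 S100 genes at their brightest probe set (points), with the range over 6 scalings of the arrays (bars) and dotted lines at 2-fold. S100a9 and S100a8 stay beyond 2-fold, S100a10 touches it at -1.01, and the bars of S100a16, S100a14 and S100a3 cross 0.

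Partner proteins and modifiers of S100 proteins showed no 2-fold difference at the brightest probe set of each gene. All 15 measured genes lay above the floor, with 7 ratios below 1, 8 above and a median log2 ratio of 0.07. With 1.58% and 1.60% of all genes above the floor 2-fold lower and higher, 0 of 15 does not set them apart. Padi1, a deiminase, read 758 and 425 (-0.84), and Plat, the tissue plasminogen activator that binds S100a10, read 240 and 147 (-0.70). Anxa2, the partner of S100a10, read 2807 and 2191 (-0.36, and -0.05 at its other probe set), and Anxa1 read 7487 and 7035 (-0.09). Cacybp read 595 and 624 (0.07). These last 3 were chosen for their known pairing after their values were seen. Other probe sets went past 2-fold lower for Anxa6 (down to -1.78, beside -0.25 at the one used) and Myh9 (down to -1.09, beside -0.17).

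The remaining S100 genes on the array were mostly dim. S100a5, S100a7l2 and S100g lay under the floor on both arrays, with at most 1.90. S100a13, which is next to S100a1, read 233 and 182 (log2 ratio -0.36). S100b, a marker of Schwann cells and melanocytes, read 45.3 and 21.7 at 1 probe set (-1.06), and at the other it read 30.0 on the wild-type array and was below the floor on the transgenic one. Of 6 Schwann cell and nerve markers, 5 lay above the floor on both arrays, and the summed signal of the 6 was 349 and 249. The median log2 ratio of the 5 was -0.57, with 4 below 0. None of the 5 was 2-fold apart, beside 1.58% and 1.60% of all genes above the floor. The largest ratios among them were those of Ngfr (54.2 and 27.7, -0.97) and Fabp7 (47.8 and 27.3, -0.81). Their part in the S100b value was not tested.

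Fused-type S100 proteins carry an S100 domain in front of long repeats and are structural proteins of epidermis and hair. Of 5 on the array, Tchhl1, a relative of trichohyalin, read 1296 and 365 (log2 ratio -1.83), and Rptn, or repetin, read 50.7 and 20.4 (-1.31). Tchh, or trichohyalin, of the inner root sheath and medulla, read 5430 and 5454 (0.01). Flg, or filaggrin, and Hrnr, or hornerin, of the granular layer of epidermis, lay under the floor on both arrays. Members of this group therefore ranged from equal to several-fold lower.

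**Figure D4:**
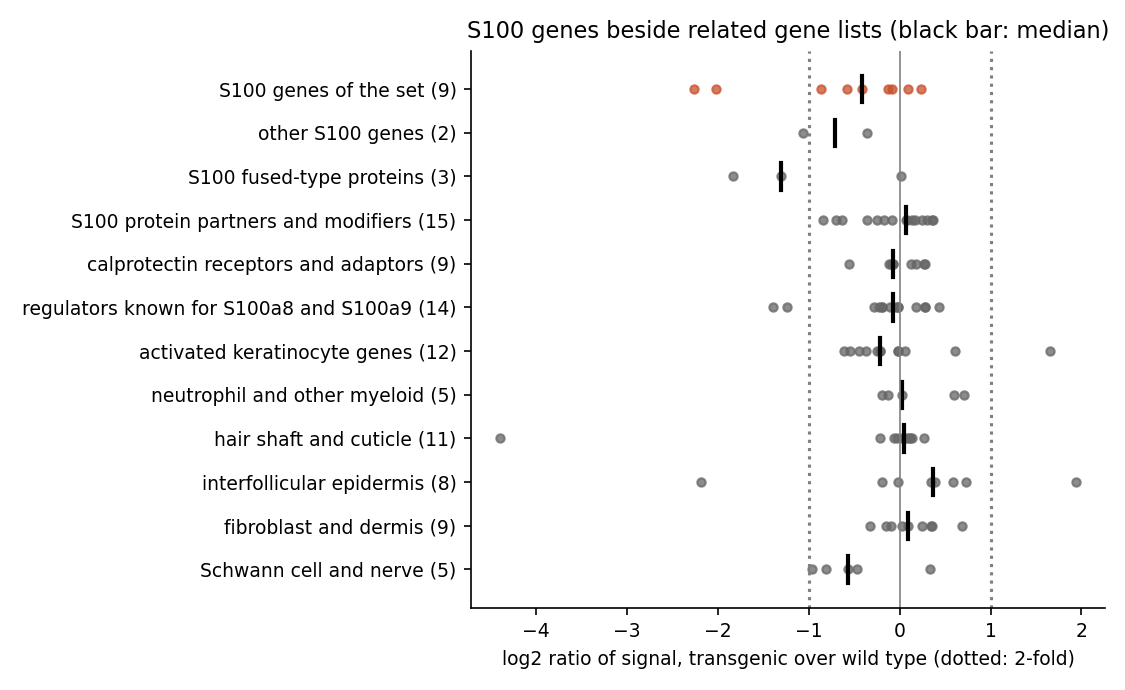
The log2 ratio of transgenic to wild-type signal for genes above the floor on both arrays, 1 point a gene, in the S100 set and in 11 lists of related genes and cell type markers, with the number of genes in parentheses, medians as black bars and dotted lines at 2-fold. S100a8 and S100a9 lie at -2.02 and -2.26, left of all genes of the myeloid, receptor, regulator and partner lists. Krt84 of the hair shaft list has a lower ratio than both, at -4.40, and Ivl of the epidermis list lies between them, at -2.19.

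All 10 genes lie on mouse chromosome 3, as RefSeq orders them. From S100a1 to S100a9 there were 12 protein-coding genes, all of the S100 family, and S100a8 and S100a9 are direct neighbours at the end of the row. S100a11 and S100a10 lie together beyond the epidermal differentiation complex, with 56 protein-coding genes between S100a9 and S100a11. Within the first row, 9 genes lay above the floor on both arrays. Lower signals were not a feature of the whole row, since its log2 ratios ran from -2.26 for S100a9 and -2.02 for S100a8 to 0.23 for S100a4.

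Of the genes between S100a9 and S100a11, 37 were on the array and 19 lay above the floor on both arrays. Among these 19, 7 were 2-fold lower and 1 was 2-fold higher, beside 1.58% and 1.60% of all genes above the floor. The median log2 ratio of the 19 was -0.34. The lower ones were the cornified envelope genes Lce3c (217 and 17.5, log2 ratio -3.63), Sprr1b (1846 and 321, -2.52), Sprr2h (1888 and 390, -2.28), Ivl or involucrin (3110 and 683, -2.19) and Sprr2f (60.7 and 17.9, -1.76), besides Tchhl1 and Rptn. The higher one was Lce1c (14.1 and 29.7, 1.07). A further 6 genes were above the floor only on the wild-type array. They were Lce3a (78.6 on that array), Lce1h (32.2), Lce1d (24.2), Lce1i (22.5), Lce3f (22.5) and Smcp (18.3). The 3 genes above it only on the transgenic array were Lce1g (25.6 on that array), Lce1a1 (16.3) and Lce1l (10.8). Others of this stretch read alike, among them Sprr1a (9373 and 9614), Prr9 (12295 and 12502) and Crct1 (8051 and 7469), picked after their values were seen. Genes of the Sprr and Lce families are similar in sequence, so their probe sets may share signal.

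On either side, the median ratios were closer to 1. Of the 20 protein-coding genes before S100a1, 16 lay above the floor on both arrays, with 0 of them 2-fold apart and a median log2 ratio of 0.01. Single genes of the 16 lay further out, from -0.50 for Rab13 (130 and 91.6) to 0.98 for Rps27 (80.2 and 158). Of the 20 after S100a10, 5 lay above the floor, again with 0 of them 2-fold apart, and a median of -0.18. Beside shares of 1.58% lower and 1.60% higher among all genes above the floor, 0 of 16 and 0 of 5 say little. The difference between these stretches and the S100 rows was not tested.

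**Figure D5:**
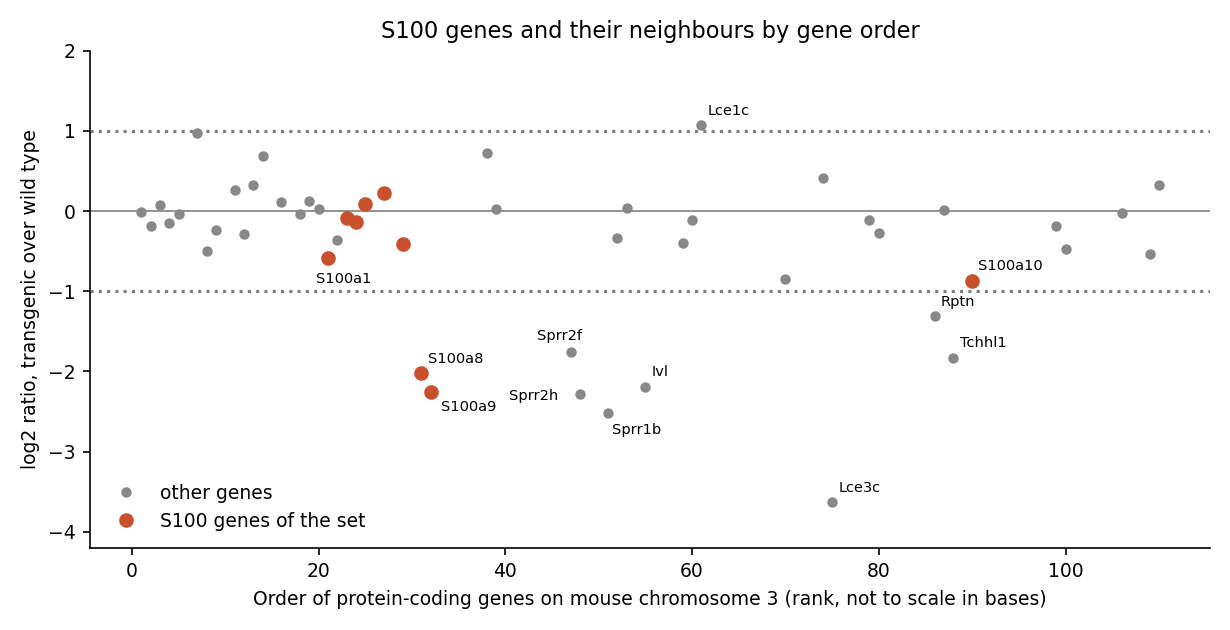
The log2 ratio of transgenic to wild-type signal by the order of protein-coding genes on mouse chromosome 3, for genes above the floor on both arrays, with the S100 genes of the set coloured and dotted lines at 2-fold. S100a8, S100a9 and 7 genes of the stretch up to S100a11 lie below -1, with Lce3c lowest at -3.63, and most of the rest lie near 0.

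The epidermis between follicles also makes S100 proteins. Of 12 of its markers, 8 lay above the floor on both arrays, with a median log2 ratio of 0.37. Of the 8, 1 was 2-fold lower (Ivl) and 1 2-fold higher (Krt77, 16.6 and 63.8), beside 1.58% and 1.60% of all genes above the floor. Krt1, Krt2 and Flg lay under the floor on both arrays. The summed signal of the 12 was 12713 on the wild-type and 10674 on the transgenic array, of which Ivl made up 3110 and 683. Most of the rest came from Sbsn (4349 and 3774), Dsc1 (2147 and 2120) and Klk7 (1940 and 2459). Whether this sum comes from epidermis between follicles was not tested, nor was the part of such epidermis in the S100 values.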

How the data were processed

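The deposited values are intensities, 1 per probe set on a linear scale, which the authors had scaled to a 2% trimmed mean of 100 on each array, as the values show. The summary algorithm is not given in the sources used here. With Python 3.11.15, the 64 control probe sets were set aside and both arrays rescaled to the same trimmed mean over the other 45037, by factors near 1. Gene symbols came from the platform annotation, checked by gene identifier against RefSeq (GRCm38.p6), and 932 probe sets with several symbols and 9160 with none were not named. A gene took its probe set with the highest mean signal. Signals under the floor were set to it before ratios. A gene counted as lower or higher when its signals were above the floor on both arrays and lay 2-fold or more apart. All probe sets of the S100 genes, every other S100 gene, and from each list the 2-fold genes and the 2 with the largest ratios above the floor were named. The functions were tested on simulated data. The members and lists were chosen with earlier results of these data known. Precision is limited by the number of arrays.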

Additional observations from a re-analysis of the deposited data

How the results depend on the processing

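S100a8 and S100a9 were both 2-fold lower under 13 of 14 other settings. Leaving out probe sets of several transcripts, which removes that of S100a8, left 1 lower gene. Many of the 13 could not change the result. Their floors lay below the lowest signal of either gene, 62.0, and each gene has 1 probe set to average. Leaving out a rescaling by factors near 1 or lowering the threshold to 1.5-fold could not change it either. Under the other scalings and the pseudocount, log2 ratios ran from -2.17 to -1.83 for S100a8 and from -2.41 to -2.07 for S100a9. Both genes also passed the 3-fold threshold. S100a10 joined them with equal medians or a 1.5-fold threshold, but went from -0.87 to -0.41 with the mean over probe sets and to -0.63 without probe sets of several transcripts. With equal spiked controls the log2 ratio of S100a8 was -1.83 and the median of the set -0.21, while the median of all genes moved to 0.19; with equal medians the latter was -0.14. Counts of all genes, lower and higher, were 296 and 115 with equal medians, 103 and 314 with equal spiked controls, 230 and 139 with quantile normalization, 235 and 134 with loess, 685 and 845 with a floor at the 20th percentile, 61 and 50 at the 60th, 37 and 22 with a floor of 50, 2131 and 2434 with no floor, 377 and 478 with a pseudocount of the floor's size, 128 and 103 with the mean over probe sets, 784 and 735 at 1.5-fold and 40 and 27 at 3-fold, against 183 and 185 in the setting used. The floor and threshold act on how many genes can count. Equal medians and equal spiked controls rescale whole arrays, which moved the median of all genes to -0.14 and 0.19 and the counts with it. The cause of the remaining shifts was not tested. No paired analysis was possible because each group has 1 array. Signals near the floor, such as those of S100b, Csf3r and Il1a, limit what their ratios can show.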
